A study of Homo sapiens with 4 samples.

Results

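The aldehyde dehydrogenase genes were followed in PSN-1 and MIA PaCa-2, 2 established human cell lines from pancreatic tumours, after transfection with an oligonucleotide. The members were the rows whose gene symbol was ALDH1A1, ALDH1A2, ALDH1A3, ALDH1B1, ALDH2, ALDH3A1, ALDH3A2, ALDH3B1, ALDH7A1 or ALDH9A1, and all 10 were found among the 26255 gene symbols of the files. The 4 groups were PSN-1 transfected with miR-4800-3p mimic, PSN-1 transfected with scramble, MIA PaCa-2 transfected with miR-4800-3p mimic and MIA PaCa-2 transfected with scramble, at 1 RNA-seq library per group. The mimic is a synthetic copy of a microRNA and the scramble a negative control oligonucleotide. The study looked for messenger RNAs that the microRNA acts on. Each line stands for 1 tumour, and nothing is known here of dose or of time after transfection. Values are FPKM, fragments normalized to transcript length and to library size, so levels of different genes in a library can be set side by side.

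Aldehyde dehydrogenases oxidize reactive aldehydes to carboxylic acids with NAD or NADP as cofactor. The ALDH1A enzymes turn retinal into retinoic acid, the ligand of nuclear retinoic acid receptors, and ALDH2, ALDH1B1, ALDH3A2 and other members clear aldehydes from ethanol, lipid peroxidation, amines and amino acids. ALDH1A1 and ALDH1A3 account for much of the ALDH activity by which cell-sorting assays mark stem-like tumour cells in several carcinomas, and cell lines differ in which of them they express. A microRNA mimic is loaded into Argonaute and pairs through its seed, bases 2 to 8, with sites in messenger RNAs, most effectively in the 3' UTR.

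ALDH1A3 (GENCODE gene ENSG00000184254.16, chromosome 15, 100877714 to 100916626, plus strand, GRCh38) carries an 8mer site for the transfected microRNA in its 3' UTR. The 8mer matches the whole seed and ends in an added A. ALDH2 (chromosome 12) carries a 7-base site in its own 3' UTR, which matches 6 of the seed bases (ACGGAT) and ends in the same added A. The mature microRNA (RefSeq, GRCh38.p14, chromosome 4, minus strand) has 19 bases and faces 19 transcript bases in each gene. Whether the ALDH1A3 site bears on the level of ALDH1A3 under the mimic was not tested. Capitals mark the seed in the microRNA and the site in the transcripts. The closing A of each site faces the base before the seed, a c, and does not pair with it.
miR-4800-3p: cAUCCGUCcgucuguccac
ALDH1A3, chr15:100915999-100916017, plus strand: atgtgttatccGACGGATA
ALDH2, chr12:111815985-111816003, plus strand: ctctctgatagtACGGATA

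The ALDH1A3 site lies in exon 13 of 13, 1237 bases after the stop codon in a 3' UTR of 1853 bases (transcript ENST00000329841.9). Counted base by base without gaps, 10 of the 19 bases of the ALDH1A3 stretch can pair with the microRNA by Watson-Crick rules, and 8 of the ALDH2 stretch. The ALDH2 site lies 6422 bases after the stop codon in an annotated 3' UTR of 7954 bases, and whether transcripts in these lines reach that far was not measured. The 8mer searched was GACGGATA and the 7-base sites GACGGAT and ACGGATA, on the transcript strand of the transcript with the longest coding sequence of each gene. Of 17798 genes with such a 3' UTR, 0.169% held the 8mer and 1.87% an 8mer or 7-base site. The other 8 members held none of these in the 3' UTR, and ALDH3A2 held the 6 inner bases ACGGAT in its coding sequence. A match is a description of the sequence, and its use in these cells was not measured.

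PSN-1 and MIA PaCa-2 expressed mostly the same members of the family, some of them at very different levels. In both lines 7 members averaged 1 FPKM or more. ALDH1A1 did so in MIA PaCa-2 alone and ALDH3A1 in PSN-1 alone. ALDH2, the mitochondrial enzyme that clears acetaldehyde, led in PSN-1, where ALDH1A1, a cytosolic retinal dehydrogenase, was at or near 0. ALDH1A1 was the leading member in MIA PaCa-2. In bulk RNA, fewer cells with a transcript and less of it per cell cannot be told apart. The remaining retinal dehydrogenase genes differed less by line, ALDH1A3 being expressed in all 4 libraries and ALDH1A2 in none above 0.1 FPKM.

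ALDH1A1 (chromosome 9) was listed at 0 FPKM under the mimic and 0.0729 under the scramble in PSN-1, against 319 under the mimic and 429 under the scramble in MIA PaCa-2. The PSN-1 scramble value stands for an estimated 1.20 fragments over the coding length, so no ratio between the lines is given. ALDH1A2 (chromosome 15) was listed at 0.0625 and 0.0526 FPKM in the PSN-1 mimic and scramble libraries and at 0 in both MIA PaCa-2 libraries, which is at the level of single fragments. ALDH1A3 was thus the retinal dehydrogenase gene that PSN-1 used, with 99.5% and 99.8% of the summed ALDH1A FPKM in its mimic and scramble libraries, against 7.50% and 6.46% in those of MIA PaCa-2.

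**Figure D1:**
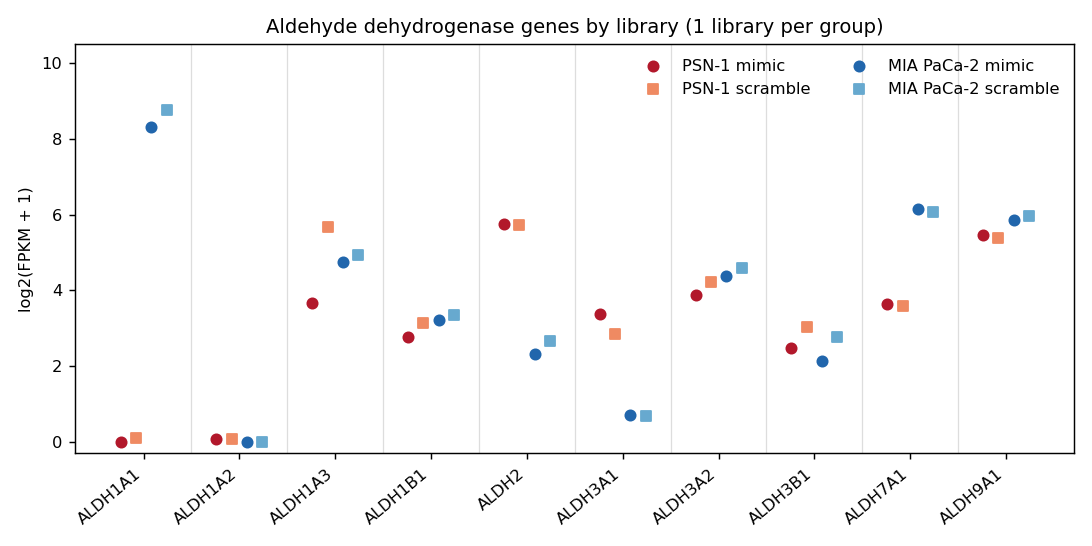
Levels of the 10 aldehyde dehydrogenase genes as log2(FPKM + 1), 1 point per library (circles, mimic; squares, scramble; red tones, PSN-1; blue tones, MIA PaCa-2). ALDH1A1 and ALDH7A1 lie higher in MIA PaCa-2 and ALDH2 and ALDH3A1 higher in PSN-1, and the ALDH1A3 points of PSN-1 lie on either side of those of MIA PaCa-2.

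ALDH2 was at 53.1 FPKM under the mimic and 51.7 under the scramble in PSN-1, against 4.01 and 5.31 in the mimic and scramble libraries of MIA PaCa-2, an 11.2-fold higher mean in PSN-1. In GENCODE the gene AC002996.1 shares 680 exon bases with ALDH2 on the same strand. ALDH3A1 (chromosome 17), a cytosolic enzyme known from cornea and stomach that oxidizes aromatic and medium-chain aldehydes, was at 9.42 and 6.27 FPKM in the PSN-1 mimic and scramble libraries, against 0.626 and 0.600 in those of MIA PaCa-2. In both genes each PSN-1 library stood well above each MIA PaCa-2 library, and the difference between lines far exceeded that between the libraries of a line. ALDH7A1 (chromosome 5), the lysine-degrading antiquitin, was at 11.5 and 10.98 FPKM in the PSN-1 mimic and scramble libraries, against 70.4 and 65.7 in those of MIA PaCa-2, a 6.05-fold higher mean in MIA PaCa-2.

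The other members lay closer together. ALDH9A1 (chromosome 1), which oxidizes aminoaldehydes such as the carnitine precursor trimethylaminobutyraldehyde, was at 43.2 and 40.4 FPKM under the mimic and scramble in PSN-1, against 57.0 and 61.5 in the mimic and scramble libraries of MIA PaCa-2. ALDH3A2 (chromosome 17), the fatty aldehyde dehydrogenase of the endoplasmic reticulum, was at 13.8 and 17.5 FPKM in the PSN-1 mimic and scramble libraries, against 19.98 and 23.2 in those of MIA PaCa-2. ALDH1B1 (chromosome 9), a mitochondrial relative of ALDH2, was at 5.79 and 7.77 FPKM in the PSN-1 mimic and scramble libraries, against 8.30 and 9.27 in those of MIA PaCa-2. The 2 lines did not overlap in any of these 3 genes, with PSN-1 lower in each.

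Limma, fitted to log2(FPKM + 1) of all 12423 genes that averaged 1 FPKM or more, taking the oligonucleotide as covariate, tested PSN-1 against MIA PaCa-2 with 1 residual degree of freedom. Nothing in the labels says that the libraries came from separate cultures, and these p-values do not measure spread between cultures. The residual of this fit is how far the mimic-scramble gap differed between the lines, which limma shares over genes. In the later fits with 1 library left out, the residual is the mimic-scramble gap of the line that kept both libraries. At a Benjamini-Hochberg adjusted p under 0.05 it called 6 of the 9 members tested, while 56.4% of all genes were called, so the share of members is near that of all genes. ALDH2 (log2 difference 3.25, SE 0.16, adjusted p = 0.000167 in limma) and ALDH3A1 (2.43, SE 0.21, adjusted p = 0.000748) were higher in PSN-1. ALDH1A1 (-8.48, SE 0.15, adjusted p = 7.0e-05 in limma) and ALDH7A1 (-2.49, SE 0.12, adjusted p = 0.000176) were lower. All 4 of these were also called with any 1 library left out, in fits without the covariate.

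ALDH9A1 (-0.49, SE 0.12, adjusted p = 0.0204 in limma) and ALDH3A2 (-0.45, SE 0.13, adjusted p = 0.0390) were called lower in PSN-1 as well. ALDH9A1 was not called with any 1 library left out (adjusted p = 0.0502 to 0.108 in limma), nor was ALDH3A2 (0.118 to 0.305). ALDH1B1 missed the threshold (-0.34, 95% interval -0.75 to 0.063, adjusted p = 0.122 in limma), as did ALDH3B1 (0.31, interval -0.10 to 0.72, adjusted p = 0.160). The ALDH1A3 interval ran from -1.26 to 0.92 around -0.17, and its PSN-1 libraries were the lowest and the highest of the 4. Without the PSN-1 mimic library the ALDH1A3 difference between lines was 0.84 and without the PSN-1 scramble library it was -1.18. Both follow from the PSN-1 values for which ALDH1A3 was singled out, so they are described and not taken as tests. For 7 of the 9 members the libraries of the 2 lines did not overlap, which held for 79% of all genes tested.

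Taken as shares of the summed FPKM of the 10 genes, ALDH2 made up 34.7% in the PSN-1 mimic library and 26.9% in the PSN-1 scramble library, and ALDH9A1 made up 28.2% and 21.0%. ALDH1A3 made up 7.63% under the mimic and 26.2% under the scramble in PSN-1, which put it next after ALDH2 in the scramble library. ALDH1A1 made up 62.7% and 68.1% in the MIA PaCa-2 mimic and scramble libraries, and ALDH7A1 made up 13.9% and 10.4%. The summed level of the 10 genes was 153 and 192 FPKM in the PSN-1 mimic and scramble libraries, against 508 and 630 in those of MIA PaCa-2. Leaving out ALDH1A3, the sum was 141 FPKM under the mimic and 142 under the scramble in PSN-1, so the lower total under the mimic there came from that gene. Leaving out ALDH1A1, the MIA PaCa-2 sums were 190 and 201 FPKM under the mimic and the scramble.

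**Figure D2:**
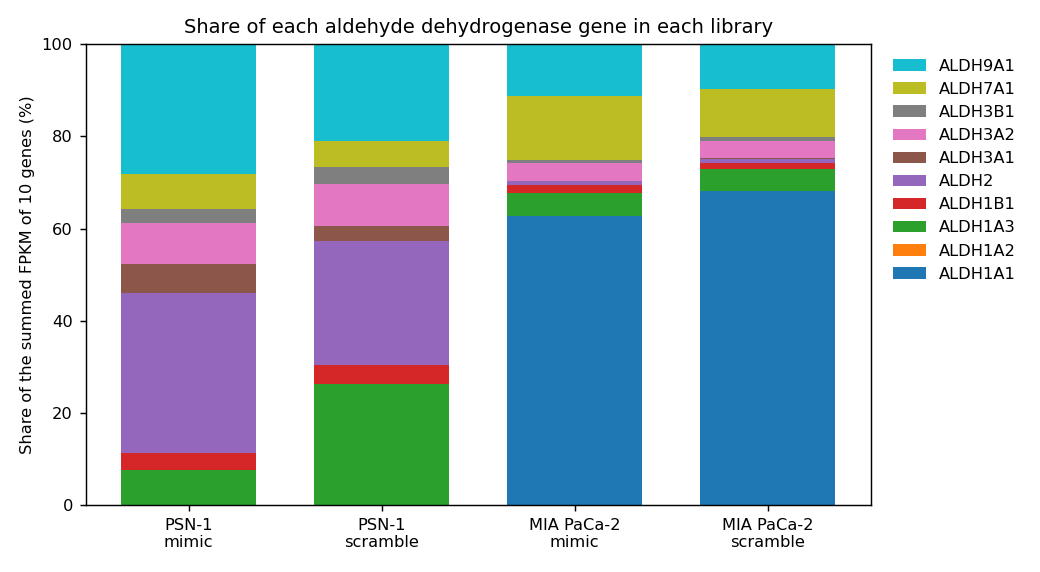
Share of each of the 10 genes in their summed FPKM (y axis, %) in each library (x axis, 1 bar per library). ALDH1A1 fills 62.7% and 68.1% of the MIA PaCa-2 bars and is absent from the PSN-1 bars at this scale, and the ALDH1A3 block of PSN-1 is 7.63% under the mimic and 26.2% under the scramble.

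Under the mimic, ALDH1A3 was the member furthest from its scramble level in PSN-1, and in MIA PaCa-2 it was nearly at its scramble level. ALDH1A3 was at 11.7 FPKM under the mimic and 50.4 under the scramble in PSN-1, against 25.9 under the mimic and 29.7 under the scramble in MIA PaCa-2. The PSN-1 mimic library was the lowest of the 4 and the PSN-1 scramble library the highest. The log2 change, taken as log2 of (mimic FPKM + 1) over (scramble FPKM + 1), was -2.02 in PSN-1 and -0.19 in MIA PaCa-2, and on this scale the changes of low genes come out too small. Without the added 1, the PSN-1 level was 4.32-fold lower under the mimic. ALDH1A3 was singled out for this PSN-1 value, so it is described and not tested.

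The PSN-1 values of ALDH1A3 rest on an estimated 249 fragments under the mimic and 852 under the scramble over the coding length alone, which gives the log2 change a counting error of 0.10 (SE). The MIA PaCa-2 values rest on 491 and 504 fragments (counting SE 0.091). These errors leave out the spread between cultures, which 1 library per group cannot give. The 2 lines' changes differed by -1.83, and no residual degree of freedom is left to test that difference. ALDH1A3 had rank 19 from the lowest of 12233 PSN-1 changes. Among 9171 PSN-1 genes that averaged 5 FPKM or more, short non-coding genes known by symbol left out, it had rank 2. Rank 1 was H3F3A (-4.50), which has processed copies that can share its reads, and rank 3 was AMIGO2 (-1.71). In GENCODE an antisense transcript, AC015712.2, shares 1585 exon bases with ALDH1A3, and the kit keeps strand but the strand setting of the counting is not known here. The share of antisense reads in the ALDH1A3 values was not tested.

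Of the 8 members that averaged 1 FPKM or more in PSN-1, 1 was lower past 2-fold under the mimic, ALDH1A3, and 0 were higher. Of all 12233 genes so measured 1.63% passed 2-fold, 0.777% lower and 0.85% higher. In MIA PaCa-2, 0 of 8 members passed 2-fold, against 2.12% of 11484 genes. ALDH1A2 was under 1 FPKM in both lines, ALDH1A1 in PSN-1 and ALDH3A1 in MIA PaCa-2, and these have no change reported there. The median change of the 8 members was -0.14 in PSN-1 (all genes, -0.016) and -0.20 in MIA PaCa-2 (all genes, 0.014).

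**Figure D3:**
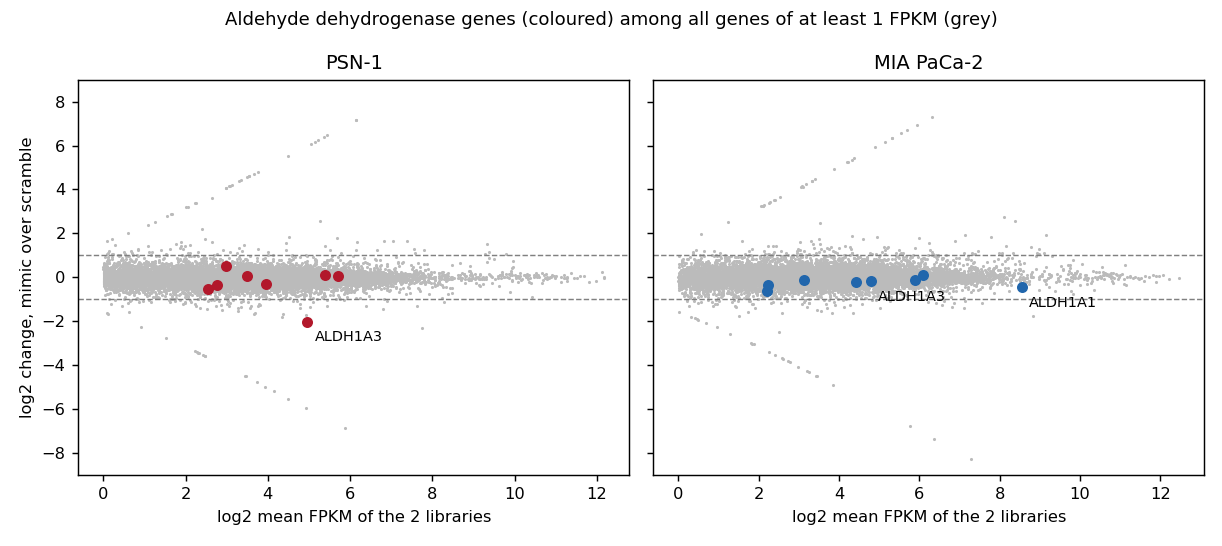
Log2 change of mimic over scramble (y axis) against log2 mean FPKM of the 2 libraries (x axis) for genes that averaged 1 FPKM or more in PSN-1 (left) and MIA PaCa-2 (right); coloured points are the 8 members measured in each line and dashed lines mark 2-fold. ALDH1A3 lies at -2.02 in PSN-1, apart from the other members, and at -0.19 in MIA PaCa-2.

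ALDH3B1 (chromosome 11), an enzyme of the plasma membrane and endosomes that oxidizes lipid-derived aldehydes, was the member lower by a like amount in both lines. It was at 4.55 FPKM under the mimic and 7.17 under the scramble in PSN-1, and at 3.39 under the mimic and 5.77 under the scramble in MIA PaCa-2. Both mimic libraries lay below both scramble libraries. The log2 changes were -0.56 (counting SE 0.21) and -0.63 (counting SE 0.24), so each rests on few fragments, and limma over both lines did not call them (mean change -0.59, SE 0.16, adjusted p = 0.476).

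ALDH1A1 had a log2 change of -0.43 under the mimic in MIA PaCa-2, and its counting SE of 0.025 was the smallest of the family. ALDH3A1 was the member furthest above its scramble value in PSN-1, by 0.52 (counting SE 0.19), and ALDH1B1 and ALDH3A2 were below theirs in both lines. ALDH1B1 had changes of -0.37 in PSN-1 and -0.14 in MIA PaCa-2, and ALDH3A2 of -0.32 and -0.20. ALDH7A1 had changes of 0.064 and 0.098, and both counting intervals, taken over the coding length alone, included 0. ALDH2, which holds the 7-base site, was at 0.036 in PSN-1 and -0.33 (counting SE 0.22) in MIA PaCa-2, and ALDH9A1 at 0.097 and -0.11. Of the 8 members measured in each line, 4 were below 0 in PSN-1 and 7 in MIA PaCa-2, ALDH1A3 being counted in each. Of all genes measured, 52.4% were below 0 in PSN-1 and 47.8% in MIA PaCa-2, and the difference from the members was not tested.

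**Figure D4:**
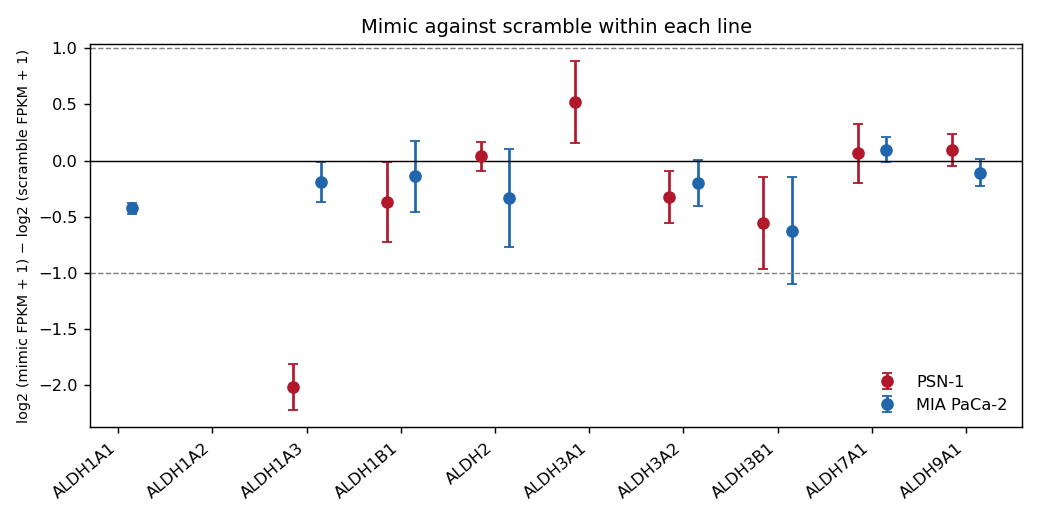
Log2 change of mimic over scramble (y axis) for each member that averaged 1 FPKM or more in the line (red, PSN-1; blue, MIA PaCa-2); bars are 95% intervals from counting error alone, estimated over the coding length, and dashed lines mark 2-fold. The ALDH1A3 point of PSN-1 at -2.02 is the one past 2-fold, and the ALDH3B1 points of both lines lie close together at -0.56 and -0.63.

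In the limma fit of both lines with the cell line as a block, 0 of the 9 members tested were called for mimic against scramble, and 7 of all 12423 genes were (0.0563%). At an unadjusted p under 0.05 there were 2 members, ALDH1A3 and ALDH3B1, against 8.44% of all genes. For ALDH1A3 this includes the PSN-1 value for which it was singled out. The 95% interval of the mean change over the lines ran from -0.65 to 0.12 for ALDH1A1, from -0.55 to 0.25 for ALDH2 and from -0.32 to 0.30 for ALDH9A1. ALDH1A1 was at 0 and 0.0729 FPKM in the PSN-1 mimic and scramble libraries. Its mean change is thus drawn toward 0 by a line that hardly expressed it.

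Genes with the 8mer were few. In PSN-1, 14 genes with the 8mer averaged 5 FPKM or more, 13 of them were below 0, with a median of -0.25, and ALDH1A3, singled out for its change, was the lowest of them. Over all genes that averaged 1 FPKM or more, 52.4% were below 0 in PSN-1, with a median of -0.016. The next was RGS3 (-1.02), a regulator of G protein signalling. In MIA PaCa-2, 10 of 11 genes with the 8mer that averaged 5 FPKM or more were below 0, with a median of -0.18. Over all genes that averaged 1 FPKM or more there, 47.8% were below 0, with a median of 0.014. With 5 FPKM as the limit, the median of all genes was -0.014 in PSN-1 and 0.017 in MIA PaCa-2. Among the 11, ALDH1A3 was at rank 5 from the lowest, behind RGS3 (-1.42) and PLAA (-1.12) among others. Whether the mimic acts on ALDH1A3 through this site was not tested.

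Of the other 9 genes of the aldehyde dehydrogenase superfamily, none of the 6 measured in PSN-1 and the 5 measured in MIA PaCa-2 passed 1.5-fold, which 7.04% and 9.49% of all genes did. ALDH18A1, which makes the proline precursor pyrroline-5-carboxylate, was at 39.3 FPKM under the mimic and 39.5 under the scramble in PSN-1, against 35.0 and 40.3 in the mimic and scramble libraries of MIA PaCa-2. ALDH16A1, whose enzyme activity is in doubt, was at 14.9 and 12.0 FPKM in the PSN-1 mimic and scramble libraries, against 21.2 and 25.3 in those of MIA PaCa-2. ALDH4A1, the mitochondrial enzyme of proline breakdown, was at 2.78 and 3.95 FPKM in the PSN-1 mimic and scramble libraries, against 24.0 and 27.3 in those of MIA PaCa-2 (line difference -2.62, SE 0.15, adjusted p = 0.000257 in limma). In the same fit 1 of the 6 tested genes was higher and 4 were lower in PSN-1, against 29.2% and 27.3% of all genes. The higher one was ALDH1L2, the mitochondrial formyltetrahydrofolate dehydrogenase, named after its values were seen, at 9.50 and 10.2 FPKM in the PSN-1 mimic and scramble libraries, against 0.479 and 0.356 in those of MIA PaCa-2.

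The retinoid genes upstream and downstream of ALDH1A3 also differed between the lines. Over the 3 retinoid lists together (54 distinct genes; 6 stand in both the metabolism and the induced list), limma called 25 of 34 tested genes higher and 4 lower in PSN-1 than in MIA PaCa-2, against 29.2% and 27.3% of all genes. The difference between these shares was not tested. FABP5, a fatty acid binding protein that can also carry retinoic acid, was at 216 FPKM under the mimic and 219 under the scramble in PSN-1, against 14.9 and 21.2 in the mimic and scramble libraries of MIA PaCa-2. RDH11, a retinal reductase, was at 18.3 and 21.8 FPKM in the PSN-1 mimic and scramble libraries, against 45.8 and 36.6 in those of MIA PaCa-2. DHRS4, another retinal reductase gene with near-identical neighbours that can share its reads, was at 11.5 and 15.9 FPKM in the PSN-1 mimic and scramble libraries, against 42.4 and 49.4 in those of MIA PaCa-2.

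Among retinoid metabolism and binding genes, 3 of 15 measured in PSN-1 were lower past 1.5-fold under the mimic and 0 higher, where 3.87% of all genes were lower. Named after their values were seen, DHRS3 and STRA6 were among them. DHRS3, a retinal reductase induced by retinoic acid, was at 15.6 FPKM under the mimic and 30.9 under the scramble in PSN-1, and at 2.26 under the mimic and 4.96 under the scramble in MIA PaCa-2. Its log2 changes were -0.94 (counting SE 0.14) in PSN-1 and -0.87 (counting SE 0.37) in MIA PaCa-2. Of 10678 genes measured in both lines, 0.609% were lower past 1.5-fold in both. Limma over both lines did not call DHRS3 (mean change -0.90, SE 0.15, adjusted p = 0.280). STRA6, a retinol uptake receptor, was at 5.44 and 9.32 FPKM in the PSN-1 mimic and scramble libraries, against 5.49 and 7.60 in those of MIA PaCa-2 (log2 changes -0.68 and -0.41). In MIA PaCa-2, DHRS3 was the 1 gene of 10 measured that was lower past 1.5-fold, against 4.06% of all genes.

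Of the genes known to be induced by retinoic acid, 6 of 20 measured in PSN-1 were lower past 1.5-fold under the mimic and 1 was higher, against 3.87% and 3.17% of all genes. The list median was -0.32, beside -0.016 for all genes. In MIA PaCa-2, 1 of 9 measured was lower and 1 higher, against 4.06% and 5.43% of all genes, with a median of -0.25. These counts are not separate from those of the metabolism list. The 3 lower genes of that list in PSN-1 are among the 6 here, and the 1 lower gene in MIA PaCa-2 is DHRS3 in each list. With each gene of the 3 retinoid lists counted once, 7 of 35 were lower and 1 higher in PSN-1. In MIA PaCa-2, 1 of 21 was lower and 1 higher. Besides DHRS3 and STRA6, the 6 held, named after their values were seen, RARRES3, HOXA3 and HOXB2 at -0.60, -0.93 and -0.78 in PSN-1. In MIA PaCa-2 RARRES3 was at -0.25, HOXB2 at 0.71 and HOXA3 under 1 FPKM. BTG2, an antiproliferative gene also induced by p53, was the higher one, at 9.54 and 3.999 FPKM in the PSN-1 mimic and scramble libraries, and at 9.66 and 7.02 FPKM in those of MIA PaCa-2. Its log2 changes were 1.08 (counting SE 0.45) in PSN-1 and 0.41 (counting SE 0.37) in MIA PaCa-2. TGM2, transglutaminase 2, was the most abundant of the list, at 491 and 624 FPKM in the PSN-1 mimic and scramble libraries, against 163 and 147 in those of MIA PaCa-2 (log2 changes -0.34 and 0.15). TNFAIP2 was at 88.2 and 127 FPKM in the PSN-1 mimic and scramble libraries, against 12.9 and 11.5 in those of MIA PaCa-2. ICAM1, an adhesion molecule gene also induced by NF-kB, was at 264 and 259 FPKM in the PSN-1 mimic and scramble libraries, against 0.0692 and 0.181 in those of MIA PaCa-2. Named after their values were seen, the classical targets CYP26A1, a retinoic acid hydroxylase, and RARB were under 0.1 FPKM in all 4 libraries.

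Of the receptors, 5 of 7 were measured in each line and none passed 2-fold, which 1.63% of all genes did in PSN-1 and 2.12% in MIA PaCa-2. RXRA, the common partner of nuclear receptors, was at 27.8 FPKM under the mimic and 44.5 under the scramble in PSN-1 (log2 change -0.66, the 1 receptor past 1.5-fold, where 3.87% of all genes were lower), and at 14.8 and 17.5 FPKM in the mimic and scramble libraries of MIA PaCa-2 (-0.23). RARA was at 48.1 and 45.6 FPKM in the PSN-1 mimic and scramble libraries and 17.9 and 20.4 in those of MIA PaCa-2, and PPARD at 22.3 and 19.4 FPKM in the PSN-1 mimic and scramble libraries and 37.4 and 35.4 in those of MIA PaCa-2. Limma over both lines called 0 of the 34 retinoid genes tested for the mimic, with 4 at an unadjusted p under 0.05, against 0.0563% and 8.44% of all genes.

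**Figure D5:**
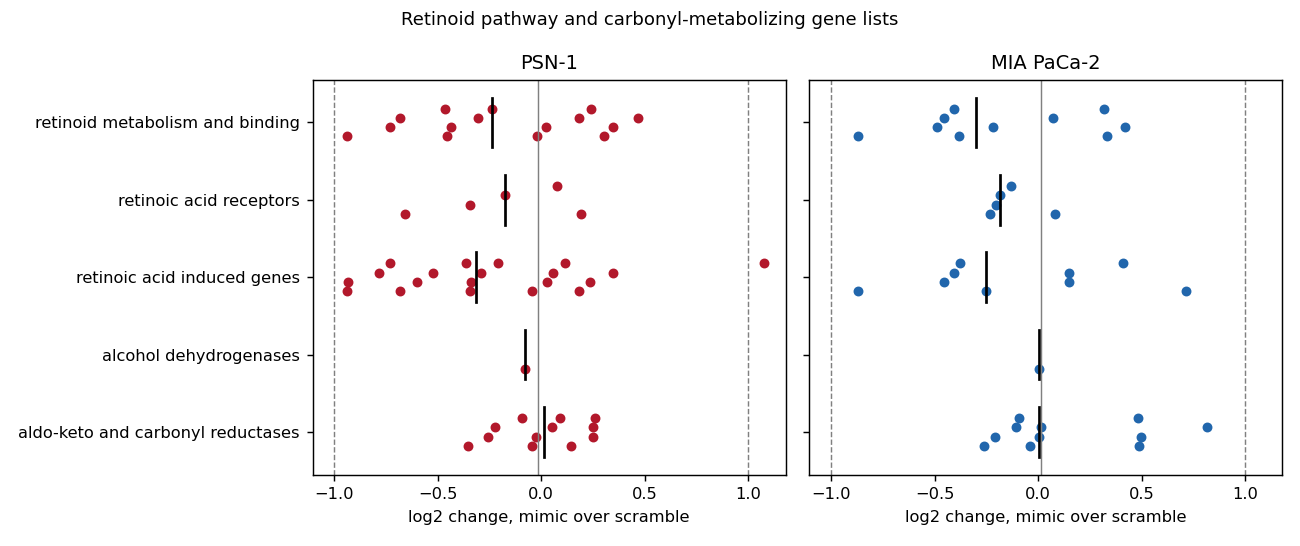
Log2 change of mimic over scramble (x axis) for the measured genes of 5 lists in PSN-1 (left) and MIA PaCa-2 (right), 1 point per gene; black bars are list medians, the grey line is the median of all genes and dashed lines mark 2-fold. The retinoic acid induced genes have medians of -0.32 and -0.25, and BTG2 in PSN-1 is the 1 point past 2-fold.

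Closeness of centred log2(FPKM + 1) profiles over the 4 libraries was taken among 10231 genes that reached 5 FPKM in some library. Members were left out, as were short non-coding genes known by symbol. The 5 genes most like ALDH1A3 were RPPH1 (Euclidean distance 0.59), IER5L (0.62), PLEKHF1 (0.69), COX14 (0.69) and SPRY1 (0.70). All 5 were lowest in the PSN-1 mimic library, which follows from choosing them by likeness to ALDH1A3 and is not a separate result. Their PSN-1 changes were -1.08 to -1.31, smaller than that of ALDH1A3. RPPH1, a non-coding RNA gene, passed the filter on symbols, and whether its level stands for polyadenylated RNA was not tested. SPRY1, a feedback inhibitor of receptor tyrosine kinase signalling, was at 21.0 FPKM under the mimic and 47.1 under the scramble in PSN-1, against 38.6 and 48.9 in the mimic and scramble libraries of MIA PaCa-2.

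The 4 libraries had 15699 to 17294 genes above 0, and 1 FPKM stood for an estimated 12.6 to 15.9 fragments per kilobase of transcript. The PSN-1 libraries expressed the epithelial keratin KRT7 (287 and 406 FPKM under the mimic and the scramble) and EPCAM (28.4 and 24.1), which were at 0 and at most 0.139 FPKM in MIA PaCa-2. KRT8, KRT18 and KRT19 were high in all 4 libraries. CDH1 was at most 1.51 FPKM, ESRP1 at most 0.212 FPKM and CLDN7 at most 0.445 FPKM, and MUC1 was at 2.28 to 3.59 FPKM. The epithelial markers thus did not all go the same way, and the lines differed in KRT7 and EPCAM. Of the mesenchymal markers, VIM was at 1144 to 4401 FPKM and ZEB1 at 19.8 to 30.5 FPKM in all 4 libraries, and CDH2 was at most 0.0514 FPKM. FN1 was at 353 and 308 FPKM in the PSN-1 mimic and scramble libraries and at most 0.0696 in MIA PaCa-2, where ZEB2 and SNAI2 were also at most 0.111 FPKM. In the PSN-1 mimic and scramble libraries SNAI2 was at 10.1 and 5.68 FPKM and ZEB2 at 4.46 and 5.09 FPKM. Of the 5 leukocyte markers, CD68 was at 38.7 and 35.3 FPKM in the PSN-1 mimic and scramble libraries and 34.6 and 20.1 in those of MIA PaCa-2 (log2 changes 0.13 and 0.76), while PTPRC was at most 0.433 FPKM and CD3E at 0. The summed endothelial markers were at 8.03 and 7.16 FPKM in the PSN-1 mimic and scramble libraries, mostly KDR (6.50 and 5.43), and at 0 and 0.0273 in those of MIA PaCa-2. The summed fibroblast and stellate markers were at 80.6 and 99.1 FPKM in the PSN-1 mimic and scramble libraries and 67.3 and 84.9 in those of MIA PaCa-2. They were led by COL3A1 in PSN-1 and by COL1A2 (59.9 and 76.8) in MIA PaCa-2. PSN-1 also expressed PDGFRB (19.6 and 20.9 FPKM under the mimic and the scramble), LUM (14.3 and 19.6) and COL1A1 (10.2 and 12.6). These were at most 0.0824 FPKM in MIA PaCa-2. DCN was at most 0.292 FPKM and ACTA2 at most 0.271 FPKM in all 4 libraries. CLDN4, an epithelial tight junction gene, was at 2.46 and 6.21 FPKM under the mimic and scramble in PSN-1 and at 2.72 and 0.869 in the mimic and scramble libraries of MIA PaCa-2, and the part of these markers in the family's values was not tested.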

How the data were processed

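Libraries were made with a stranded polyadenylated RNA kit, per the labels' protocols. The deposited unit is FPKM for each gene symbol, per the file headers. TopHat2 2.1.1, Cuffdiff 2.2.1 and the build hg19 are named in the submitters' processing notes, without roles; the annotation, the strand setting and how libraries were scaled were not given in the sources used here. Because FPKM is relative to a library total, abundant genes can shift all others. Depth was estimated from single-transcript genes of at least 1000 bases, as the modal step of low values, assuming fragments of 200 bases. Counting errors use the longest coding sequence of each gene in GENCODE v29 (GRCh38, not the files' build) and cover counting only. Leaving out the untranslated bases makes them too large where fragments fall there.

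Changes within a line were log2 ratios after adding a pseudocount of 1, over genes that averaged 1 FPKM or more in the line, and have no test. In R 4.3.3, limma 3.58.1 (lmFit and trended eBayes, two-sided, Benjamini-Hochberg over all genes) fitted line and oligonucleotide together and was tested on simulated data. Seed sites were searched in GENCODE transcripts. The members, lists and tests were chosen with earlier results of these data known. Named genes were all members, list genes past 2-fold in either line, the 3 highest of each enzyme, retinoid and receptor list (cell type markers fall outside this rule), and the 5 profiles closest to ALDH1A3; others are said to be named after their values were seen. One listed gene is counted but not reported here by name. Alternatives were pseudocounts of 0.1 and 0.5, filters, scaling, trend, covariates, and leaving out libraries. Python 3.11.15, numpy 2.4.6, pandas 2.3.3 and matplotlib 3.10.9 were used.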

Additional observations from a re-analysis of the deposited data

Results flagged for a closer look

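ALDH2 was at a log2 change of 0.036 in PSN-1 and -0.33 in MIA PaCa-2, so the 2 lines had opposite signs. ALDH9A1 also had opposite signs, at 0.097 in PSN-1 and -0.11 in MIA PaCa-2. All 4 values lie within 95% of 0 by counting error over the coding length alone. Those intervals come out too wide where fragments also fall outside the coding sequence. With 1 library per group, no direction is established. Neither difference between the lines was tested, and each line gives 1 pair of libraries.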

How the results depend on the processing

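With 1 library per group, no value within a line has a replicate, and counting errors rest on estimated depth. Under the other pseudocounts, filters and scalings, 1 member passed 2-fold in PSN-1, always ALDH1A3 (log2 change -2.10 to -2.01), and 0 passed in MIA PaCa-2; with 1.5-fold in place of 2-fold there was 1 in MIA PaCa-2, ALDH3B1. For mimic against scramble limma called 0 members under each alternative, while all genes called moved from 7 to 5 without the trend and to 0 with no filter or no block by line. That block by line is a pairing of mimic with scramble by cell line; the labels carry no replicate numbers. For PSN-1 against MIA PaCa-2 limma called 4 to 6 members, with 4 when any 1 library was left out, in fits of 3 libraries where the lone library of a line is assumed to vary like the other line. All genes called were 3624 higher and 3388 lower, without the covariate 3427 higher and 3142 lower, and from there, with a library also left out, between 1462 higher with 881 lower (without the PSN-1 mimic library) and 2848 higher with 2145 lower (without the MIA PaCa-2 mimic library). ALDH3A2 also lost its call without the filter (adjusted p = 0.0530 in limma), without the trend (0.0510) and without the covariate (0.0806). TPM scaling raises all values against an unchanged pseudocount.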

Other observations

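AKR1B1, aldose reductase, was at 164 and 167 FPKM in the PSN-1 mimic and scramble libraries, against 2.17 and 2.17 in those of MIA PaCa-2 (line difference 5.71, SE 0.13, adjusted p = 7.3e-05 in limma). DCXR, a dicarbonyl and xylulose reductase, ran the other way, at 70.4 and 84.4 FPKM in the PSN-1 mimic and scramble libraries, against 147 and 170 in those of MIA PaCa-2 (-1.03, SE 0.097, adjusted p = 0.000992). AKR1A1 was at 47.6 and 39.6 FPKM in the PSN-1 mimic and scramble libraries and 37.4 and 39.9 in those of MIA PaCa-2. Of 12 aldo-keto and carbonyl reductase genes tested by limma, 3 were called higher and 6 lower in PSN-1, against 29.2% and 27.3% of all genes. None of the 12 measured in PSN-1 or the 11 measured in MIA PaCa-2 passed 2-fold under the mimic, against 1.63% and 2.12% of all genes. Of the 8 alcohol dehydrogenase genes, ADH5, which clears formaldehyde bound to glutathione, was the 1 measured in either line, at 20.2 and 21.4 FPKM in the PSN-1 mimic and scramble libraries and 27.2 and 27.1 in those of MIA PaCa-2. ADH1C was at most 0.0508 FPKM and ADHFE1 at most 0.222 FPKM.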
